A study of Mus musculus with 11 samples.

Results

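The nuclear genome encodes most subunits of the mitochondrial respiratory chain, and this report follows those genes in FACS-sorted β-cells that had lost *Raptor*. Members were chosen by symbol alone: protein-coding genes named *Ndufa*, *Ndufb*, *Ndufc*, *Ndufs* or *Ndufv* (without the *Ndufaf* assembly factors), *Sdha* to *Sdhd*, *Uqcr*, *Cox4* to *Cox8*, or *Atp5*. This gave 85 of the 34728 gene symbols in the deposited table, with 38 in complex I, 4 in complex II, 8 in complex III, 18 in complex IV and 17 in complex V. Of these, 77 reached 1 FPKM (fragment counts scaled to transcript length and library size) in at least 3 of the 11 libraries and were tested, and the other 8 are described by level only. *Ndufa4* was counted in complex I by its symbol although its protein is now placed in complex IV.

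GFP-positive cells came from islets of 8-week-old mice of C57BL/6 x 129SV background. All mice carried RIP-Cre, which is driven by the rat insulin promoter, and a *Rosa26* GFP reporter that marks cells in which Cre has acted, including cells that later left the β-cell state. WT mice (n = 3 libraries) had intact *Raptor*, whose protein is the defining subunit of mTORC1. Diabetic βRapKOGFP mice (n = 4) lacked *Raptor* in these cells and received no insulin, and euglycemic βRapKOGFP mice (n = 4) had the same genotype and carried an insulin pellet for 4 weeks. There was no WT group with a pellet, so in the mutants the correction of blood glucose and the insulin itself cannot be told apart. The sources used here do not say whether a library came from 1 mouse or several.

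Complexes I to IV pass electrons from NADH and succinate to oxygen. Of these, complexes I, III and IV pump protons out of the mitochondrial matrix, and complex V, the ATP synthase, lets the protons return to make ATP. Complex I takes electrons from NADH through a flavin and a chain of iron-sulfur clusters, complex II does so from succinate, complex III hands them to cytochrome c, and complex IV reduces oxygen. The mitochondrial genome encodes a small core of these complexes other than complex II, and the genes described here encode most of the rest, although the choice by symbol misses some nuclear subunits with other names. In β-cells the ATP made this way closes potassium channels at the cell surface when glucose rises, which triggers insulin release.

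Promoters of respiratory chain genes are known for sites of the factors NRF1 and GABP, so the sequence before the start of the members was searched for short core motifs. RefSeq promoters (GRCm38.p6) were held for 67 of the 85 members, in 72 windows of 250 bases before the start. The NRF1 core GCATGCGC, on either strand, was in 8 member windows (11.1%) and in 2.26% of all 32851 windows. The ETS core CCGGAAG, the motif read by GABP, was in 12 member windows (16.7%) and in 6.91% of all. The YY1 core AAGATGGCG was in 1 member window (1.39%) and in 0.606% of all, CCAAT was in 41.7% against 33.8%, and TATAAA was in 9.72% against 12.4%. Motif hits are matches of letters and not measured binding. Windows of 2 members that held a match are shown 5′ to 3′ on the gene's strand, cut where the annotated gene begins, with the NRF1 or ETS match in capitals. That of *Cox6a1*, the broadly expressed isoform that the results set against *Cox6a2*, lies at chr5:115348982-115349208 on the minus strand and holds overlapping NRF1 cores in both orientations; the ETS core counted for *Cox6a1* is not within the bases shown. That of *Uqcrh*, a complex III member discussed with its values, lies at chr4:116075072-116075320 on the minus strand and holds an ETS core next to the start.
Cox6a1: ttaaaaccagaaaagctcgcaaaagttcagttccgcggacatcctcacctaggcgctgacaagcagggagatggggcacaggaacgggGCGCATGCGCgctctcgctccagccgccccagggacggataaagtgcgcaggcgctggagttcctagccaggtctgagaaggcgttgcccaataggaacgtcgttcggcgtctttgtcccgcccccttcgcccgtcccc
Uqcrh: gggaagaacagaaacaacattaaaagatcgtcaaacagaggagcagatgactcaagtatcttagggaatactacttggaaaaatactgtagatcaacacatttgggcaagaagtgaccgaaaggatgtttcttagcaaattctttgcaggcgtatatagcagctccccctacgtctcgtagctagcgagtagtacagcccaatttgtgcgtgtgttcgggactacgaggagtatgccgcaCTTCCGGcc

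Library depth, read from the steps in the FPKM of 4926 single-exon genes, was estimated at 9496828 to 16650008 fragments, with euglycemic 4 the shallowest. *Rptor* itself lay between 0.948 and 1.79 FPKM in WT, between 0.485 and 0.937 in diabetic and between 0.423 and 0.623 in euglycemic cells, so no mutant library reached the lowest WT library. An exact two-sided permutation test gave p = 0.0571 for either mutant group against WT, which is the smallest p that 3 against 4 libraries allow. The lowest WT value was that of WT 1, just above diabetic 1 (0.937). WT 1 and euglycemic 4 stood apart from their groups over all genes, with estimated library weights of 0.284 and 0.229, and the results that rest on them are given with and without them. The 8 β-cell markers summed to between 116568 and 206198 FPKM in every library, nearly all of it from *Ins1*, *Ins2* and *Iapp*. The other markers had lower mean FPKM in both mutant groups, and the median difference of the 8 from WT was -0.49 in diabetic and -0.54 in euglycemic cells. *Slc2a2*, the glucose transporter GLUT2, was called lower in both, at 69.7 to 87.0 FPKM in WT against 13.1 to 29.6 over all mutant libraries. *Pdx1*, a transcription factor of β-cells, read 76.6 to 99.6 in WT, 39.0 to 63.0 in diabetic and 41.1 to 81.9 in euglycemic cells, and was not called.

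Across the 77 members the clearest pattern lay between the mutant groups. Nearly every member had a lower fitted level in diabetic than in euglycemic βRapKOGFP cells, although no single member met the criteria for a call. The fitted difference in log2(FPKM + 1) was below 0 for 76 of 77 members, with a median of -0.66 where the median of all 11251 genes tested was 0.01. Summed over all 85 members, diabetic libraries held 3843 ± 408 FPKM (SD, n = 4) and euglycemic libraries 5958 ± 385 (SD, n = 4), 1.55 times as much. In 45 members (58.4%) every diabetic library lay below every euglycemic library, against 7.42% of all genes tested, and in 0 members was the order the opposite one.

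No single member met the criteria of this comparison (limma, Benjamini-Hochberg adjusted p of at most 0.05 over all genes tested and at least 1.5-fold), and the smallest adjusted p among the members was 0.122. Over all genes 1 was called, which is 0.00889% of those tested. At an unadjusted p of at most 0.05, 55 members (71.4%) were lower in diabetic cells, against 10.0% of all genes tested, and 0 were higher. With only the 8 mutant libraries in the fit, 0 members were called and the smallest adjusted p was 0.0717.

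Leaving WT 1 out of the fit changed the count for the mutant groups although it entered neither of them, because the residual spread is pooled over all groups. The median remained -0.66 and 23 members (29.9%) were then called lower in diabetic cells, against 1.64% of all genes tested. They comprised 14 members of complex I, 3 of complex III, 5 of complex IV and 1 of complex V. The smallest adjusted p became 0.0346 (limma). With WT 1 and euglycemic 4 both left out, 39 members were called lower, against 4.31% of all genes tested.

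Against WT the members differed by less, and to opposite sides in the mutant groups. In diabetic cells the median difference from WT was -0.21, and 69 of 77 members lay below 0. In euglycemic cells it was 0.40, and 72 of 77 lay above 0. Only *Cox6a2* met the criteria, and it was lower in both mutant groups, where 0.969% of all genes tested were called in diabetic and 0.551% in euglycemic cells. At an unadjusted p of at most 0.05, 8 members (10.4%) were lower in diabetic cells against 5.74% of all genes, and 16 (20.8%) were higher in euglycemic cells against 7.33% of all genes. Both comparisons share the same 3 WT libraries.

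**Figure D1:**
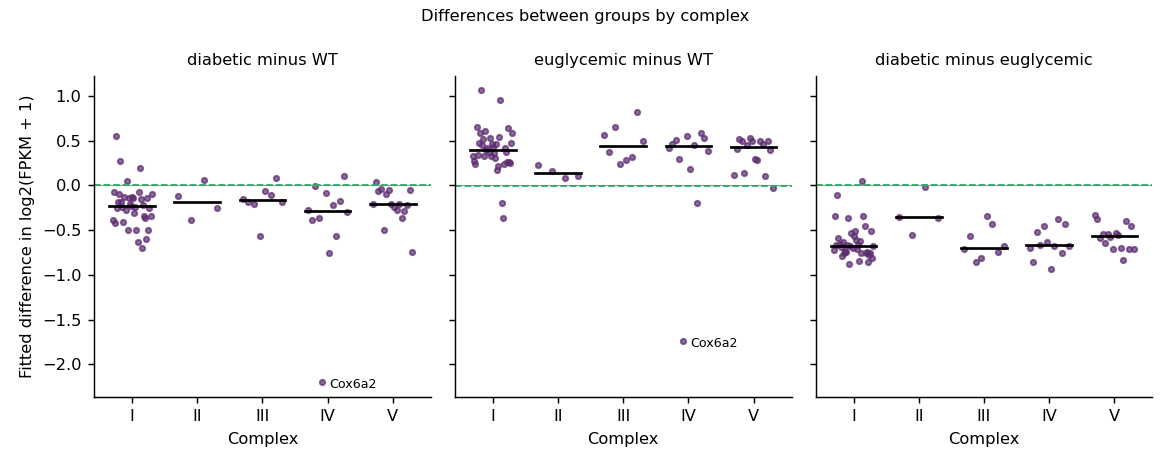
Fitted difference in log2(FPKM + 1) of each tested member (points) by complex I to V, for diabetic minus WT, euglycemic minus WT and diabetic minus euglycemic; black bars are the medians of the complexes and the dashed line the median of all 11251 genes tested. In the third panel 76 of 77 points lie below 0, and Cox6a2 stands apart from complex IV at -2.20 and -1.74 in the other panels.

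The spread within WT came from 1 library. Each gene was set against its own mean over the 11 libraries on the log2(FPKM + 1) scale, and the median over the members was 0.46 in WT 1, -0.25 in WT 2 and -0.34 in WT 3. The 4 diabetic libraries lay between -0.52 and -0.19 and the 4 euglycemic libraries between 0.24 and 0.39. Over all genes tested the same medians lay between -0.12 and 0.13, so WT 1 lay with the euglycemic libraries and WT 2 and WT 3 with the diabetic ones. WT 1 held the highest WT value in 74 of 77 members, against 44.7% of all genes tested, and exceeded the mean of the other two by a median of 1.75 times (range 0.793 to 2.73).

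**Figure D2:**
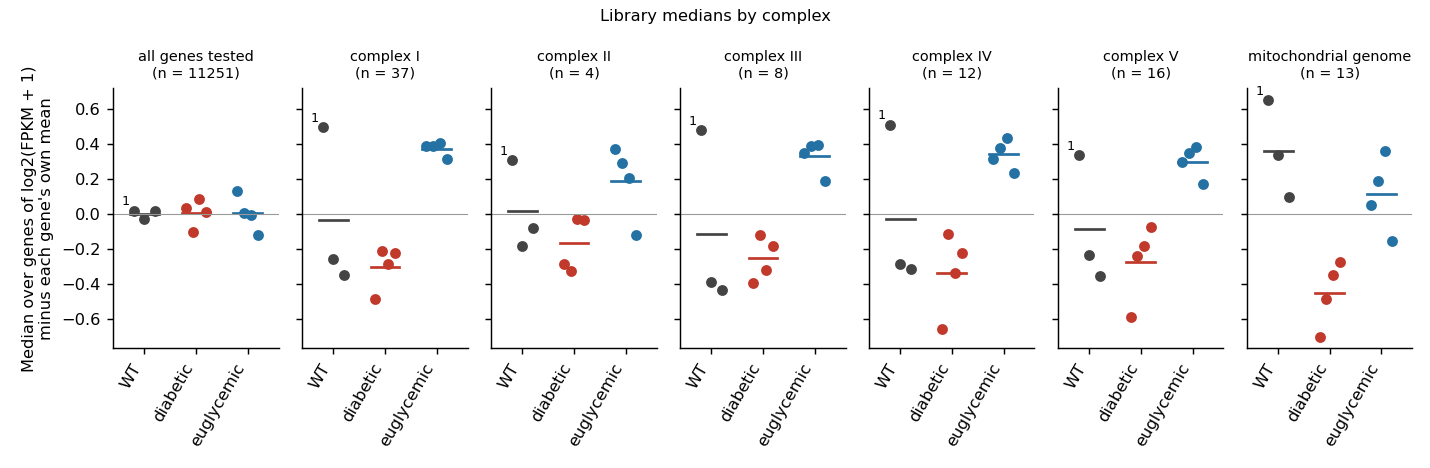
Median over genes of log2(FPKM + 1) minus each gene's own mean, per library (points; WT 1 is marked with 1), for all genes tested, each complex and the 13 protein genes of the mitochondrial genome; bars are group means. In complexes I, III, IV and V the 4 euglycemic points sit above all diabetic points, with WT 1 beside or above them and WT 2 and WT 3 near the diabetic points.

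Without WT 1 the median difference of the members from WT became 0.03 in diabetic cells and 0.64 in euglycemic cells. Of the members, 17 were then called in euglycemic cells, 16 of them (20.8%) higher than WT, against 2.86% of all genes tested called higher. *Ndufc2*, an accessory subunit of complex I picked here after its values were seen, had the smallest adjusted p of these (0.0117, limma) and a difference of 1.25 ± 0.18 (SE). WT 2 and WT 3 lay below every euglycemic library in 64 of 77 members, against 19.2% of all genes tested. In diabetic cells *Cox6a2* was still the only member called. With all 3 WT libraries, the diabetic values lay wholly under those of WT in 6 members (7.79%), against 6.88% of all genes, and the euglycemic values wholly over them in 7 members (9.09%), against 5.91%, so the shares of the members were near those of all genes. The labels give no reason to set WT 1 aside, and what set it apart was not tested.

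**Figure D3:**
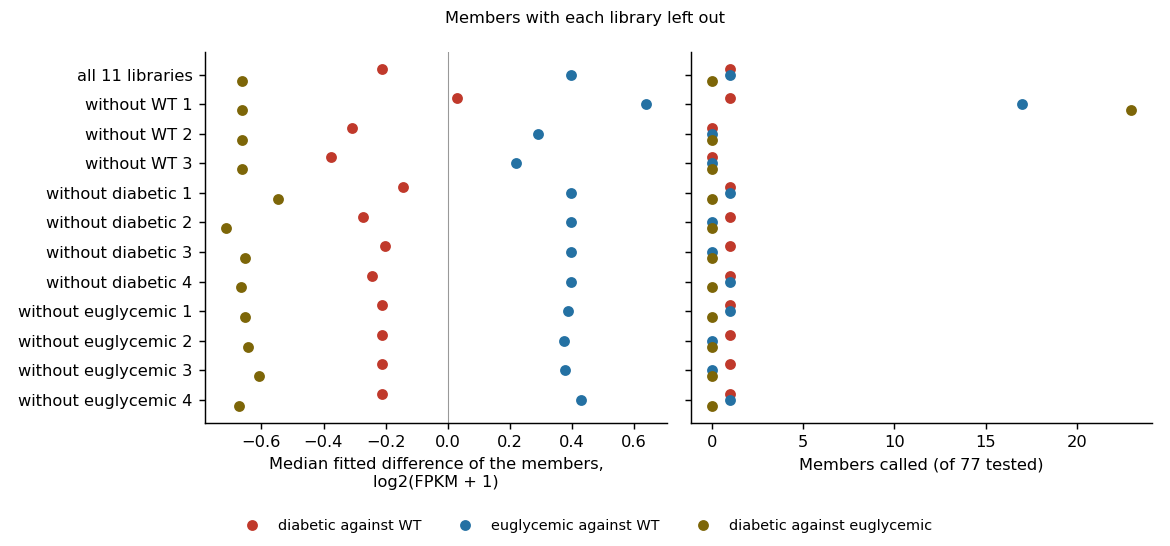
Median fitted difference of the members in log2(FPKM + 1) (left) and number of members called (right) with all 11 libraries and with each library left out in turn, by comparison. Only the fit without WT 1 gave more than 1 called member, 17 for euglycemic against WT and 23 for diabetic against euglycemic.

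In complex I the FPKM of the 38 genes summed to 1585 ± 166 (SD) over the 4 diabetic libraries and to 2577 ± 121 over the 4 euglycemic ones, and to 2855, 1615 and 1539 in the 3 WT libraries. The median difference between diabetic and euglycemic cells was -0.68, and 29 of its 37 tested members had an unadjusted p of at most 0.05, where 10.0% of all genes tested were lower in diabetic cells at that p. Of the 7 core subunits that carry the flavin, the iron-sulfur clusters or the quinone site, 4 did so, with a median of -0.51. *Ndufv1*, which binds the flavin that accepts electrons from NADH, read 16.6, 13.7 and 12.5 FPKM in WT, 12.9, 11.9, 12.4 and 9.77 in diabetic and 17.2, 16.5, 15.7 and 19.2 in euglycemic cells. Every diabetic value lay below every euglycemic one, and the difference was -0.51 ± 0.16 (SE), with an adjusted p of 0.143 (limma).

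*Ndufs1*, the largest iron-sulfur subunit of complex I, went another way. Its FPKM was 11.4, 10.7 and 9.48 in WT, 10.6, 6.61, 10.1 and 10.6 in diabetic and 11.7, 11.6, 9.65 and 4.90 in euglycemic cells. The groups overlapped throughout, and its difference of 0.05 ± 0.25 (SE) between the mutant groups was the only one of the 77 above 0. Its direction there rested on single libraries and turned to -0.21 without euglycemic 4.

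Among the tested genes counted in complex I by symbol, *Ndufa4* had the highest difference of euglycemic from WT cells, 1.06 ± 0.24 (SE), with an adjusted p of 0.0794 (limma). It read 12.8, 13.1 and 8.20 FPKM in WT, 18.5, 13.7, 13.0 and 10.6 in diabetic and 29.5, 27.9, 19.0 and 22.4 in euglycemic cells. The euglycemic values lay above all others, and here WT 1 was not the highest WT library. *Ndufa12*, whose 50-base stretches were shared to 17.7% with another annotated gene, ranged widely within groups, between 5.25 and 16.7 FPKM in diabetic and between 8.38 and 16.3 in euglycemic cells. Its difference from WT of 0.55 ± 0.37 (SE) in diabetic cells was the highest of complex I and had an adjusted p of 0.615 (limma). Chosen after their values were seen, *Ndufa7* and *Ndufb8* were among the members whose diabetic values lay wholly under those of WT, and *Ndufc2* and *Ndufs7* joined *Ndufa4* with euglycemic values wholly over them.

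Between the mutant groups, complex II had the smallest median difference of the complexes. Its 4 genes summed to 293 ± 42.0 FPKM (SD) over the diabetic libraries and to 376 ± 66.4 over the euglycemic ones (n = 4 each), 1.28 times as much, and the median difference between the mutant groups was -0.36. *Sdhb*, the iron-sulfur subunit, was the only one with non-overlapping mutant groups, at 38.2, 41.7, 47.8 and 50.6 in diabetic and 72.3, 70.0, 67.5 and 53.2 in euglycemic cells, with 83.6, 45.9 and 51.1 in WT. Its difference between the mutant groups was -0.55 ± 0.21 (SE), with an adjusted p of 0.180 (limma). *Sdha*, the flavoprotein that oxidizes succinate, differed by -0.35 ± 0.20 (SE) with overlapping groups. *Sdhc*, which anchors the complex in the membrane, read 24.2, 29.1 and 32.1 in WT, 24.4 to 36.2 in diabetic and 25.2 to 36.8 in euglycemic cells. Its difference between the mutant groups was -0.02 ± 0.18 (SE), and it was one of only 2 tested members, with *Cox6a2*, in which WT 1 lay below the mean of WT 2 and WT 3. Whether complex II differed from the other complexes was not tested.

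Complex III summed to 368 ± 37.0 FPKM (SD) over the diabetic libraries and to 574 ± 37.5 over the euglycemic ones (n = 4 each). *Uqcrc1*, a core protein of the complex, read 52.1, 39.6 and 38.2 in WT, 31.3, 33.3, 24.6 and 26.6 in diabetic and 64.0, 52.3, 48.2 and 42.0 in euglycemic cells. The diabetic values lay below all others, with a difference of -0.81 ± 0.19 (SE) from euglycemic cells (adjusted p = 0.122, limma) and of -0.56 ± 0.20 (SE) from WT (adjusted p = 0.271). Without WT 1 it was among the called members in the comparison of the mutant groups. *Uqcrfs1*, the Rieske iron-sulfur protein, read 81.8, 73.1, 102 and 115 in diabetic and 157, 154, 121 and 79.5 in euglycemic cells, so the groups overlapped through euglycemic 4. *Uqcrh*, the hinge subunit that helps cytochrome c dock and whose promoter window is printed above, read 12.3, 8.84 and 8.70 in WT, 9.24, 11.6, 11.2 and 10.1 in diabetic and 15.1, 18.0, 26.8 and 14.7 in euglycemic cells. Its euglycemic values lay above all others, with a difference of 0.82 ± 0.22 (SE) from WT and an adjusted p of 0.147 (limma).

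Complex IV held both the one called gene and the most tissue-specific isoforms. Its 18 genes summed to 1009 ± 159 FPKM (SD) over the diabetic libraries and to 1568 ± 135 over the euglycemic ones (n = 4 each). Of its 12 tested members, 9 had non-overlapping mutant groups (against 7.42% of all genes tested) and all 12 lay below 0 between diabetic and euglycemic cells. *Cox4i1*, the common isoform of the subunit that sets the response of the enzyme to ATP, read 68.9, 44.0 and 45.4 in WT, 32.3, 45.1, 46.6 and 47.5 in diabetic and 70.9, 69.7, 72.6 and 64.6 in euglycemic cells. The difference between the mutant groups was -0.70 ± 0.19 (SE), with an adjusted p of 0.125 (limma). *Cox5a*, a subunit facing the matrix, differed by -0.85 ± 0.23 (SE), at 60.5 ± 7.39 FPKM in diabetic and 110.3 ± 14.8 in euglycemic cells (SD, n = 4). *Cox8a*, the most abundant member of all, differed by -0.68 ± 0.22 (SE), at 296 ± 48.7 FPKM in diabetic and 470.3 ± 42.3 in euglycemic cells (SD, n = 4). Without WT 1, all 3 were called lower in diabetic than in euglycemic cells.

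*Cox6a2* encodes the isoform of subunit 6A known from heart and skeletal muscle, and it lies on chromosome 7 from 128205435 to 128206387 on the minus strand (ENSMUSG00000030785, mm10). It read 124, 152 and 148 FPKM in WT, 20.1, 37.0, 26.4 and 40.5 in diabetic and 66.7, 36.0, 54.4 and 22.3 in euglycemic cells. All 8 mutant libraries lay below all WT libraries, whereas the mutant groups overlapped. Its difference from WT was -2.20 ± 0.34 (SE) in diabetic cells (adjusted p = 0.00915, limma) and -1.74 ± 0.34 (SE) in euglycemic cells (adjusted p = 0.0389), and the mean fell to 0.219 and 0.317 times that of WT. Between the mutant groups the difference was -0.46 ± 0.31 (SE), with an adjusted p of 0.412. It was chosen by its symbol like the other members, but its fall in these data was known beforehand.

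The call in diabetic cells was made in 18 of 22 other fits, with adjusted p between 0.000222 and 0.0722, and was missed without a filter, with the replicate block, without WT 2 and without WT 3. The call in euglycemic cells was made in 12 of 22, with adjusted p between 0.00102 and 0.206. Besides those 4 fits it was missed with a pseudocount of 0.1, with only the groups compared, and without any 1 of diabetic 2, diabetic 3, euglycemic 2 and euglycemic 3. The difference stayed below 0 in all of them, between -2.36 and -2.02 in diabetic and between -1.97 and -1.45 in euglycemic cells. Of the exon bases of *Cox6a2*, 10.3% overlap *Itgad* on the opposite strand, and 3.33% of its 50-base stretches occur in another annotated gene. A list of 6 skeletal and heart muscle genes summed to between 1.98 and 9.08 FPKM in every library, below *Cox6a2* in each, with no group apart from the others. Nearly all of that sum came from *Acta1* and *Actn2*, and *Ckm*, *Myh6*, *Myh7* and *Tnnt2* reached at most 0.149.

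*Cox6a1*, the paralog expressed in most tissues, did not share the pattern. It read 217, 119 and 117 FPKM in WT, 92.1, 125, 116 and 119 in diabetic and 181, 189, 193 and 153 in euglycemic cells, in the order seen for most other members. The ratio of *Cox6a2* to *Cox6a1* was 0.572, 1.27 and 1.26 in WT, between 0.218 and 0.341 in diabetic and between 0.146 and 0.368 in euglycemic cells. Every mutant ratio lay below every WT ratio. The difference in the log2 ratio was -1.87 for diabetic and -2.07 for euglycemic cells against WT, each with p = 0.0571 in an exact two-sided permutation test, the smallest p that 3 against 4 libraries allow. The mutant groups differed by 0.20 (exact permutation p = 0.600). As a share of the FPKM of both isoforms, *Cox6a2* made up 36.4, 56.0 and 55.8% in WT, 17.9 to 25.4% in diabetic and 12.7 to 26.9% in euglycemic cells.

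**Figure D4:**
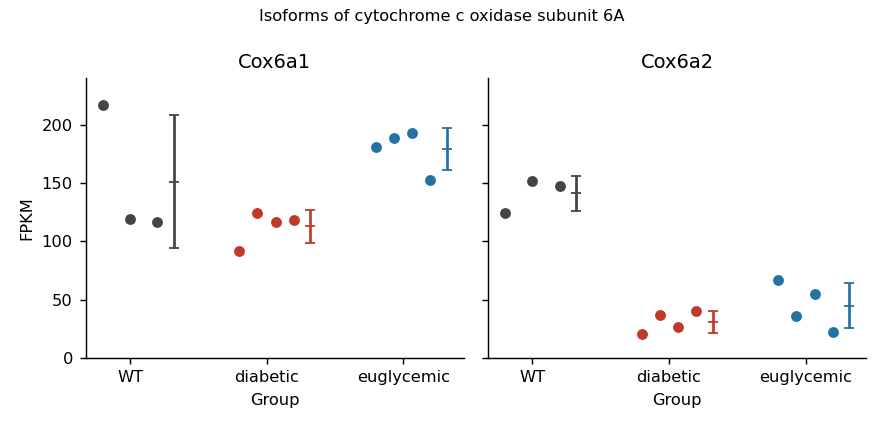
FPKM of Cox6a1 and Cox6a2 in each library (points) by group, with the mean and SD beside them (n = 3 WT, 4 diabetic, 4 euglycemic). Cox6a2 lies between 124 and 152 in WT and at or below 66.7 in every mutant library, whereas Cox6a1 in WT 1 (217) lies above all others and in WT 2 and WT 3 lies within the diabetic range.

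The other isoform pairs of complex IV showed the common isoform and little else. *Cox4i2*, the hypoxia-responsive isoform, was above 0 in 1 library only (0.160 FPKM in diabetic 1), and the testis isoform *Cox6b2* reached at most 0.0960. The muscle isoforms *Cox7a1* and *Cox8b* reached at most 1.40 and 0.930, and *Cox7b2* and *Cox8c* at most 0.348 and 0.586. *Ndufa4l2* reached at most 0.922. All were among the 8 members that were not tested. *Cox6b1*, *Cox7b* and *Cox8a* each made up at least 98.8% of their family in every library.

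Within the *Cox7a* family *Cox7a2* and *Cox7a2l*, which encodes a factor that joins complexes III and IV into supercomplexes, were similarly abundant but differed in pattern. *Cox7a2* read 201, 126 and 104 FPKM in WT, between 88.1 and 159 in diabetic and between 178 and 221 in euglycemic cells. The mutant groups did not overlap, and the difference was -0.68 ± 0.23 (SE), with an adjusted p of 0.160 (limma). *Cox7a2l* read 258, 126 and 131 in WT, 82.9, 77.5, 140 and 158 in diabetic and 152, 155, 161 and 107 in euglycemic cells, with overlapping groups and a difference of -0.38 ± 0.29 (SE). *Cox7c*, whose stretches were shared to 22.1% with other annotated genes, read between 2.79 and 4.75 in diabetic and between 4.23 and 9.44 in euglycemic cells. *Cox6b1* and *Cox7b* had differences of 0.55 ± 0.25 and 0.59 ± 0.25 (SE) between euglycemic and WT cells, with adjusted p of 0.354 and 0.323 (limma), and without WT 1 both were called higher.

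Complex V summed to 588 ± 65.6 FPKM (SD) over the diabetic libraries and to 862 ± 57.5 over the euglycemic ones (n = 4 each), and 10 of its 16 tested members had an unadjusted p of at most 0.05 between them, against the same 10.0% of all genes tested. *Atp5a1* and *Atp5b*, the alpha and beta subunits of the catalytic part, had the smallest differences of the complex, -0.33 ± 0.22 and -0.37 ± 0.24 (SE) between the mutant groups. *Atp5b* read 138, 88.3 and 84.9 in WT, 105, 79.0, 127 and 109 in diabetic and 174, 153, 130 and 94.5 in euglycemic cells. The mutant groups overlapped through euglycemic 4, as they did for *Atp5a1*, at 77.4 to 116 and 82.0 to 151. *Atp5c1*, the gamma subunit that turns in the rotor, read 73.0, 53.4 and 44.9 in WT, 40.5, 51.0, 56.9 and 69.0 in diabetic and 77.1, 83.7, 80.7 and 81.7 in euglycemic cells. Its euglycemic values lay above all others, with a difference of 0.52 ± 0.22 (SE) from WT (adjusted p = 0.304, limma).

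Of the 3 genes that encode the same mature subunit c of the membrane ring, *Atp5g3* carried 92.8 to 94.9% of their summed FPKM in every library. It read 40.1, 46.0, 53.6 and 55.3 in diabetic and 82.5, 88.9, 83.5 and 65.9 in euglycemic cells, with 69.5, 49.2 and 51.3 in WT, and a difference of -0.71 ± 0.18 (SE) between the mutant groups (adjusted p = 0.123, limma). *Atp5g1* read 2.53 to 3.22 in diabetic and 4.39 to 4.97 in euglycemic cells, against 3.82, 2.46 and 2.62 in WT, and its euglycemic values also lay above all others. *Atp5g2* was not tested and reached at most 0.630, with 38.4% of its stretches shared with other genes. *Atp5s*, a coupling factor, read 30.7, 18.6 and 19.1 in WT, 11.6, 9.64, 14.6 and 16.9 in diabetic and 23.8, 22.4, 22.5 and 18.9 in euglycemic cells. The diabetic values lay below all others, with a difference of -0.74 ± 0.23 (SE) from WT and an adjusted p of 0.195 (limma).

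**Figure D5:**
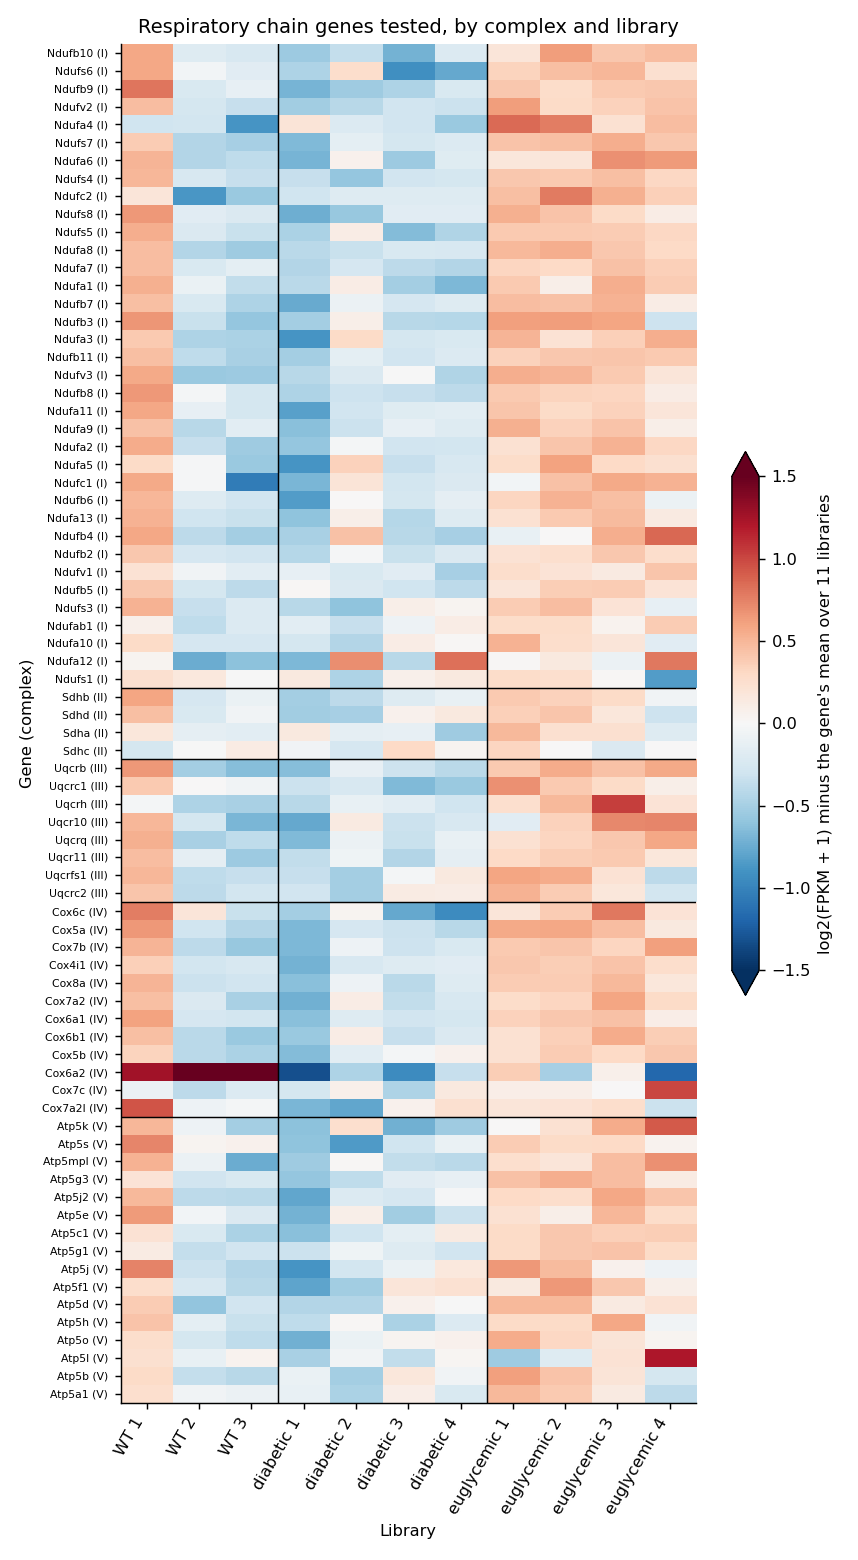
log2(FPKM + 1) of 76 tested members minus each gene's mean over the 11 libraries (color, limited to 1.5 either side), with members ordered by complex and by their diabetic minus euglycemic difference and libraries by group. WT 1 and the euglycemic columns are mostly red and WT 2, WT 3 and the diabetic columns mostly blue, with Cox6a2 red in all 3 WT columns.

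Genes that serve the chain without being members were taken from lists. Of 48 assembly factors, which build the complexes without staying in them, 47 were tested and 0 were called in any comparison. Their median difference between diabetic and euglycemic cells was -0.34. At an unadjusted p of at most 0.05, 15 were lower and 1 was higher, against 1126 and 1191 of all 11251 genes tested. WT 1 again stood apart (0.43, against -0.16 and -0.21 in the other WT libraries). Of 15 tested electron carriers and quinone-linked enzymes, 0 were called and the median was -0.15. Of 12 regulators of mitochondrial biogenesis, 1 was called: *Ppargc1a*, the coactivator PGC-1α, was higher in diabetic cells than in WT by 1.71 ± 0.28 (SE), with an adjusted p of 0.0140 (limma). In that comparison 0.969% of all genes tested were called. The median of these regulators was 0.20 between diabetic and euglycemic cells, above 0 where the members lay below it. Whether these lists differed from the members was not tested.

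The 13 protein genes of the mitochondrial genome, whose products assemble with the members, followed another order of the groups. Their summed FPKM was 14915, 10746 and 9553 in WT, 5440 to 7095 in diabetic and 7746 to 11342 in euglycemic cells, so all diabetic libraries lay below all others. Against WT their median difference in diabetic cells was -0.82. At an unadjusted p of at most 0.05, 12 of 13 were lower, against 5.74% of all genes tested. Of the 13, 1 was called, *mt-Nd2* (-0.98 ± 0.21 SE, adjusted p = 0.0449, limma), against 0.969% of all genes tested. In euglycemic cells the median of the 13 genes was -0.24, where that of the nuclear members was 0.40. WT 1 was again the highest WT library, but WT 2 and WT 3 lay above every diabetic library here, which was not so for the nuclear members.

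Most members have short transcripts, and transcript length went with the difference between the groups. Of the tested members, 69 of 77 (89.6%) had a median annotated transcript under 1000 bases, against 40.4% of all genes tested. The median difference between diabetic and euglycemic cells over the 4477 other tested genes under that length was -0.12, against -0.66 for the members. After a correction of each library for transcript length, the median of the members was -0.48 between the mutant groups, 0.29 for euglycemic against WT and -0.17 for diabetic against WT.

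Markers of other cells moved with the groups as well. Over the 8 diabetic and euglycemic libraries, the sums of 2 marker lists did not overlap between the mutant groups. The 4 ductal markers summed to 57.3 to 86.1 FPKM in diabetic and 95.8 to 131 in euglycemic cells, lower in diabetic cells like the members, with 58.1 to 71.6 in WT. Most of that sum was *Krt7*, at 40.3 to 55.5 in diabetic, 62.8 to 89.3 in euglycemic and 51.4 to 67.8 in WT libraries. *Krt19*, *Sox9* and *Spp1* each overlapped between the mutant groups. The 6 endothelial markers ran opposite to the members, at 8.51 to 49.7 in diabetic and 1.40 to 4.38 in euglycemic cells. Acinar markers (12 genes) summed to between 23.8 and 2322 in diabetic, between 18.2 and 4187 in euglycemic and at most 37.5 in WT libraries, and alpha-cell markers (5 genes) to between 3935 and 14718, between 4759 and 23767 and at most 2438. The sum of the delta-cell markers (2 genes), nearly all of it *Sst*, and the PP-cell marker *Ppy* were higher in every mutant than in every WT library, as was the alpha-cell sum but not the acinar one. Leukocyte (5 genes) and fibroblast (4 genes) markers summed to at most 90.7 and 15.0 FPKM, both in diabetic 1. Among them the B-cell gene *Cd79a* went the other way, at 20.1, 8.20 and 9.22 in WT and at most 1.10 in every mutant library, and was called lower in both mutant groups. Of the 38 marker genes tested, 4 were called higher in diabetic cells than in WT (among them *Ppy*, *Spp1* and *Plvap*) and 5 in euglycemic cells (*Ppy*, *Gcg*, *Sst*, *Krt19* and *Spp1*), and *Slc2a2* and *Cd79a* were called lower in both. Over all genes tested, 0.969% were called against WT in diabetic and 0.551% in euglycemic cells. Between diabetic and euglycemic cells 0 of the 38 marker genes were called. None of the marker genes was at 0 in all libraries. Immediate-early genes (8 genes), which rise when tissue is dissociated, summed to 1192 in WT 1 and to 3333 and 2793 in WT 2 and WT 3, to between 946 and 1543 in diabetic and to between 940.4 and 5031 in euglycemic libraries. The part of these cells and signals in the members' levels was not tested, and in sorted bulk RNA fewer cells of a type and less RNA per cell cannot be told apart.

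Sequence shared between genes limits some of these levels. Of the 85 members, 35 shared no 50-base stretch with another annotated gene and 7 shared over 20% of their stretches, so their FPKM is uncertain to that extent. Exons of several members also overlap a gene on the other strand, among them *Ndufb6*, *Atp5o* and *Ndufa13* (39.0, 35.6 and 30.0% of exon bases, chosen after the values were seen), and the sources used here do not state that the counting used strand.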

How the data were processed

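The authors deposited 1 table of FPKM values per gene for all 11 libraries (3 WT, 4 diabetic, 4 euglycemic). The study's methods name TopHat, Cufflinks and Cuffdiff, whereas the submitters' processing notes name HISAT2 2.0.4, StringTie 1.3.0 and edgeR, both on mm10, so which made the deposited FPKM is unsure. Columns labelled KI were read as the insulin-treated mutants. All 11 value columns were used. Of 34745 entries, 34267 were matched to symbols, and 17 second entries of a symbol were left out.

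Genes with at least 1 FPKM in at least 3 libraries (11251) were fitted on log2(FPKM + 1) with limma 3.58.1 in R 4.3.3 (moderated by eBayes with a trend) over all 11 libraries, without covariates. A gene was called at a Benjamini-Hochberg adjusted p of at most 0.05 over all genes tested and at least 1.5-fold; fold changes are on the log2(FPKM + 1) scale and understate those of low genes. P-values measure the spread between these libraries, which may in part be technical. The fit was tested on simulated data with noise drawn separately for each gene. These data held no shift shared by many genes of a library, as seen in WT 1. Single ratios were compared by exact permutation tests (scipy 1.17.1). Alternatives were no filter, 8 libraries in the filter, a pseudocount of 0.1, TPM, median-of-ratios scaling, a length correction, only the groups compared, library weights, no fold criterion, unadjusted p, a replicate block and each library left out. Depth was inferred from FPKM times length in genes of 1 exon and 500 bases or more, where between 78.3 and 89.2% of low values were whole multiples of 1 step (within 0.02 of a whole number, up to 20 fragments). Counts were not recovered for other genes.

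Members and lists were chosen with earlier results of these data known. Named members were those called, the lowest and highest of each complex against WT, the isoform families and the core subunits; of the other lists, called genes were named, and further marker genes were chosen after their values were seen. Of the genes these rules name, 1 member and 1 marker gene enter the counts and medians but are not reported here. Shared 50-base stretches and exon overlaps come from GENCODE vM21 (GRCm38, the build of mm10), promoters from RefSeq.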

Additional observations from a re-analysis of the deposited data

Results flagged for a closer look

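Among 56 groups of 4 libraries checked (the named members, their median and the *Cox6a2* to *Cox6a1* ratio in both mutant groups), 5 had 1 library far from the other 3 by Dixon's criterion, where chance flags about 5%. *Cox4i1* read 32.3 FPKM in diabetic 1 against 45.1 to 47.5 in the other diabetic libraries. *Ndufs1* read 6.61 in diabetic 2 against 10.1 to 10.6. *Cox7a2* read 221 in euglycemic 3 against 178 to 183. In euglycemic 4, *Cox7a2l* read 107 against 152 to 161, and *Cox7c* read 9.44 against 4.23 to 4.60. Euglycemic 4 was also the shallowest library (9496828 fragments by the estimate), whose part in these values was not tested.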

How the results depend on the processing

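The median difference of the 77 members stayed below 0 between diabetic and euglycemic cells in all 22 other fits (-0.71 to -0.48) and above 0 for euglycemic against WT (0.22 to 0.68), and lay between -0.38 and 0.03 for diabetic against WT. The count of called members depended on the libraries: with each left out in turn it was 0 to 1 for diabetic against WT, 0 to 17 for euglycemic against WT and 0 to 23 for diabetic against euglycemic, both maxima without WT 1. The counts in the last 2 comparisons were 44 and 48 with library weights (20.3 and 10.8% of all genes tested), 28 and 39 without WT 1 and euglycemic 4 together (10.6 and 8.42%; median 0.68 for euglycemic against WT), and 14 and 24 with median-of-ratios scaling and WT 1 left out (5.82 and 4.73%), the latter 2 alternatives chosen after seeing the data. For euglycemic against WT 0 members were called with only the groups compared and with a pseudocount of 0.1, and without a filter 0 in both comparisons with WT. At an unadjusted p of at most 0.05 with at least 1.5-fold, the 3 counts were 5, 8 and 46 (8.26, 9.92 and 12.04% of all genes tested). Replicate numbers did not pair the samples (mean correlation of same-numbered deviations -0.13), and with the replicate block 0 members were called against WT in both comparisons; *Cox7c* (-0.059) and *Sdha* (0.0045) then turned sign for diabetic against WT. The cause was not tested for any of these.

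Small differences of single members turned sign. For diabetic against WT these were, with TPM, *Atp5c1* (0.011) and *Atp5g1* (0.014); with library weights, *Atp5c1* (0.056), *Atp5g1* (0.080), *Cox6b1* (0.11), *Cox7b* (0.0555) and *Uqcrfs1* (0.16); with median-of-ratios scaling and WT 1 left out, *Atp5c1* (0.11), *Atp5g1* (0.095), *Cox6b1* (0.22), *Cox7a2* (0.036), *Cox7b* (0.15), *Sdhc* (-0.0615) and *Uqcrfs1* (0.17); and without WT 1 and euglycemic 4, *Atp5c1* (0.12), *Atp5g1* (0.10), *Cox6b1* (0.23), *Cox7a2* (0.048), *Cox7b* (0.16), *Sdhc* (-0.049) and *Uqcrfs1* (0.18). For euglycemic against WT they were, with library weights, *Atp5s* (0.22), *Cox7a2l* (0.19) and *Ndufs1* (0.051); with median-of-ratios scaling and WT 1 left out, *Atp5s* (0.18), *Cox7a2l* (0.12) and *Sdhc* (-0.051); and without WT 1 and euglycemic 4, *Atp5s* (0.27), *Cox7a2l* (0.28), *Ndufs1* (0.11) and *Sdhc* (-0.021). Between the mutant groups they were *Sdhc* with TPM (0.097), the length correction (0.081) and library weights (0.028), *Ndufs1* with library weights (-0.14) and without WT 1 and euglycemic 4 (-0.21), and *Ndufa12* in the latter (0.083).

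With each library left out in turn, differences for diabetic against WT ranged from -0.089 to 0.26 for *Atp5b*, -0.22 to 0.12 for *Atp5c1*, -0.14 to 0.10 for *Atp5g1*, -0.27 to 0.23 for *Cox6b1*, -0.42 to 0.048 for *Cox7a2*, -0.38 to 0.16 for *Cox7b*, -0.22 to 0.0010 for *Sdha*, -0.049 to 0.15 for *Sdhc* and -0.26 to 0.18 for *Uqcrfs1*. For euglycemic against WT they ranged from -0.14 to 0.20 for *Atp5s*, -0.37 to 0.14 for *Cox7a2l*, -0.32 to 0.053 for *Ndufs1*, -0.0015 to 0.42 for *Sdhb* and -0.029 to 0.17 for *Sdhc*. Between the mutant groups they ranged from -0.35 to 0.15 for *Ndufa12*, -0.21 to 0.19 for *Ndufs1* and -0.12 to 0.077 for *Sdhc*.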
